A study of Mus musculus with 158 samples.

Results

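The 35 genes described here encode plasma proteins of the complement and coagulation systems, and they are 35 of 21755 protein-coding genes of the autosomes and chromosome X. They were taken as a list of names, which was chosen with earlier results of these data known. For each gene, the locus was its GENCODE gene body in mm10 with 10 kb on both sides, and the DNase-seq hotspots of 20 adult hotspot sets that overlapped it were counted and measured. DNase-seq maps accessible chromatin by sequencing the ends of fragments cut out of nuclei by DNase I, and a hotspot is a stretch with more cuts than the local background at an FDR of 5%. Because neighbouring genes share flanks, as F7 with F10 or C2 with Cfb, the 35 loci merged into 28 regions with 1549784 bp.

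Each set came from 1 of 5 F1 hybrids and 1 of 4 tissues. The hybrids had C57BL/6J dams. The sire gave the second part of each name. It was C3H/HeJ for B6xC3H, whereas CAST/EiJ, PWK/PhJ and SPRET/EiJ sires gave B6xCAST, B6xPWK and B6xSPRET. For B6x129, the sire was the SvImJ line of the strain in its name. Its full name is given below, where the processing of the data is described. The mice were 8 weeks old. Whole liver, kidney and lung were used, typically from several pooled mice, and B cells were isolated from femoral marrow by depletion of cells with CD43 or Mac-1/CD11b. All samples of a hybrid and tissue had been pooled before hotspots were called, and the 5 hybrids of a tissue are therefore its only repeats. Percentages given for a locus are the percent of its bases inside hotspots, and values per set follow the order B6x129, B6xC3H, B6xCAST, B6xPWK and B6xSPRET. RNA-seq of 17 samples and 1 DNase-seq and 1 CTCF ChIP-seq set of B6xCAST mouse embryonic stem cells (mESCs) were used beside the hotspots.

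Coagulation is a chain of serine protease zymogens and cofactors that ends when thrombin turns fibrinogen into fibrin, and plasmin later dissolves the clot. Complement is a related chain of proteases and pore-forming proteins that marks and lyses microbes, and its classical, lectin and alternative branches meet at C3. Hepatocytes secrete most of these proteins into plasma. Macrophages, endothelial cells and several epithelia are known to make some complement components locally.

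The liver sets held 211762 to 295565 hotspots, the kidney sets 186061 to 238917, the lung sets 152006 to 281978 and the B cell sets 78387 to 156078. Of 8 hepatocyte marker genes, all 8 had a hotspot at the start in at least 3 of 5 liver sets, 3 in kidney (Alb, Ttr and Apob), 1 in lung (Alb) and none in B cells. Of 8 B cell markers, all 8 had one in B cells, but also all 8 in lung, 4 in kidney and 3 in liver. Of 8 lung markers, 7 had one in lung, all but Cldn18, and of 6 macrophage markers 5 had one in liver, 3 in lung, 2 in B cells and 1 in kidney, with Csf1r open in no set. In whole tissues, a smaller number of open nuclei and a weaker opening in each nucleus cannot be told apart.

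The promoters of 27 of the 35 members had an entry in the RefSeq table (GRCm38.p6), each with 250 bases before and 50 after a RefSeq start. No entry was found for Plg, Proc, Kng1, C2, C4b, Cfb, Cfi and Masp1. The 7 printed here were chosen because they stand for different patterns of opening or hold a sequence motif of a liver or acute-phase factor, and capitals mark the motif matches. Fga, the fibrinogen alpha chain gene, was among the most widely covered loci in liver and holds a STAT match, F11 was closed at its start outside liver and holds FOXA matches, F13b and Hc were the only ones of the 27 with an HNF1 match, F7 the only one with an HNF4 match, C3 holds NF-kB matches, and C1ra had a start hotspot in every set.
Fga (chr3:83025903-83026202, forward strand): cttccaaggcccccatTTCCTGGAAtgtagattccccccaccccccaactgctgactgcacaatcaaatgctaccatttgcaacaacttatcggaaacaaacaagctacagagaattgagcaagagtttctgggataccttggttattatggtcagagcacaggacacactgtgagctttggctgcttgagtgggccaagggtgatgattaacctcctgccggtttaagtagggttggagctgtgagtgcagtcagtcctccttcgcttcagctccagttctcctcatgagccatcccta
F11 (chr8:45261982-45262281, reverse strand): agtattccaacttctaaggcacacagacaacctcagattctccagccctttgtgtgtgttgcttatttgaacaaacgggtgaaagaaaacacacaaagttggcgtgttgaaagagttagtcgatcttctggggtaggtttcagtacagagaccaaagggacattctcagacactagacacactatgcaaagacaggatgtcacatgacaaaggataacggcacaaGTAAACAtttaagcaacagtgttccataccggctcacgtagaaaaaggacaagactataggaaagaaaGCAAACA
F13b (chr1:139501457-139501756, forward strand): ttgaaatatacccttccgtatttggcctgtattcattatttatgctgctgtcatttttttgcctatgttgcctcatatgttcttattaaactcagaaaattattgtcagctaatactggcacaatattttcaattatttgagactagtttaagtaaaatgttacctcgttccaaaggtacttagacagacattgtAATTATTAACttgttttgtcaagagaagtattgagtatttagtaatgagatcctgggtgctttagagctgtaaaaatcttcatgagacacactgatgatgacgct
F7 (chr8:13025784-13026083, forward strand): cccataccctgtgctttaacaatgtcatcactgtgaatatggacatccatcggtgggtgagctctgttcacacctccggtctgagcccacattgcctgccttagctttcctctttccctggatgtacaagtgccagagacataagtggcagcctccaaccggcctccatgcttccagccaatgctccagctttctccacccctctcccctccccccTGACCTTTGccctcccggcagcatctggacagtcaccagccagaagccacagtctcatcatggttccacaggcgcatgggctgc
C3 (chr17:57228087-57228386, reverse strand): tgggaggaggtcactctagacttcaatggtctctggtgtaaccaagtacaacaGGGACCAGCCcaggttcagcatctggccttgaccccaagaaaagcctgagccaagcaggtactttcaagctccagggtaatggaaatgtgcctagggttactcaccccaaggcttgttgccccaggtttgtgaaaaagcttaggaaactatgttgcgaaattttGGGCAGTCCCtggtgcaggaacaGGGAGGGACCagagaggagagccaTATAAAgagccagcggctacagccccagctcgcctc
Hc (chr2:35061363-35061662, reverse strand): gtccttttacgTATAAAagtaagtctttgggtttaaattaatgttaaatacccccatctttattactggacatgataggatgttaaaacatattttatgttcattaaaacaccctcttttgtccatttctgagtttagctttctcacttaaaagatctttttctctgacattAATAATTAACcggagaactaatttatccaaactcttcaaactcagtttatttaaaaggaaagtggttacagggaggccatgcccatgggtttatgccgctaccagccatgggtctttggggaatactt
C1ra (chr6:124512371-124512670, forward strand): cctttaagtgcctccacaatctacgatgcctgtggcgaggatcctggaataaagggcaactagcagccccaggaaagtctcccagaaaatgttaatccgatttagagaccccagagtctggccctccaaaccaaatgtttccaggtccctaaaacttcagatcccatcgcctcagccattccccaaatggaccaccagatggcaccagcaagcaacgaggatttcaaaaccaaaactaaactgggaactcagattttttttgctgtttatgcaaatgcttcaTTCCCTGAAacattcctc

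Motifs were searched on both strands as plain letters, and a match is a description of the letters only. TTCNNNGAA, bound by STAT factors, was found in 6 of 27 member promoters (22.2%, against 8.30% of all 32851 promoters), namely those of Fga, Fgb, Vtn, C8a, C1ra and Masp2. The FOXA letters TGTTTAC or TGTTTGC were found in 4 (14.8%, against 8.48%), those of F11, Klkb1, C8b and C1s1. The HNF1 letters, GTTAAT and ATT separated by any base, were found in F13b and Hc (7.41%, against 0.399%). The match ended 46 bases before the RefSeq start in F13b and 69 bases before it in Hc. HNF4 letters, CAAAGTCCA or CAAAGGTCA, occurred in F7 alone (3.70%, against 0.950%), at 34 to 26 bases before the start. GGGA and CC separated by 4 bases, for NF-kB, occurred in 5 (18.5%, against 20.7%), and C3 held 3 such matches in its window, which overlap no other motif searched. The C/EBP letters TTGCGCAA or TTGTGCAA occurred in no member promoter, against 1.19% of all promoters. The GC box GGGCGG, common at broadly open promoters, was found in 2 member promoters (F5 and Klkb1, 7.41%, against 35.7%). TATAAA was found in 4 (14.8%, against 13.6%), and the median GC content was 48.0% in member promoters and 52.7% in all promoters. In every liver set, hotspots covered the whole printed window of Fga, F11, F13b, F7, C3 and Hc, while in B cells they covered none of these 6 windows. The C1ra window was covered over 93.8% ± 8.53 (SD, n = 5) in liver and 86.1% ± 9.14 in B cells.

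The member loci were covered by hotspots far more widely in liver than in the other tissues. Of the bases of the 28 regions, liver hotspots covered 22.3% ± 5.28 (SD, n = 5) and kidney hotspots 5.69% ± 0.654, with 3.85% ± 1.01 for lung and 2.49% ± 0.808 for B cells. A liver set had 541 ± 36.6 hotspots there and a kidney set 225 ± 17, whereas lung had 178 ± 34 and B cells 92.6 ± 20.9. The median member locus was covered over 22% ± 5.23 in liver, where the median of all protein-coding genes was 6.31%. With the 10 kb flank the order was the opposite outside the liver, with 4.47% ± 0.477 against 5.36% in kidney, 3.45% ± 0.851 against 4.69% in lung and 1.42% ± 0.678 against 3.69% in B cells. With a 50 kb flank the members were no longer below all genes in kidney (5.155 against 5.137%) or lung (4.524 against 4.521%). Ranked among all genes of the same set, the median member stood at percentile 93.5 ± 1.41 in liver. The percentile was 42.9 ± 2.14 in kidney, and lung had 39.2 ± 2.95 and B cells 31.9 ± 2.36.

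**Figure D1:**
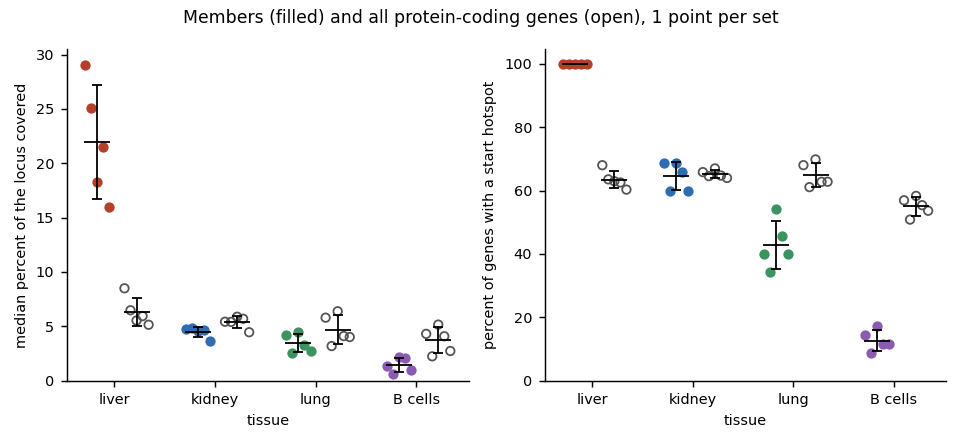
Each point is 1 hotspot set, with tissues on the x axis, and bars give the mean and SD of 5 sets. The left panel plots the median percent of the locus covered and the right panel the percent of genes with a hotspot within 500 bp of the start, for the 35 members (filled) and all protein-coding genes (open). The members lie above all genes in liver, at 22% against 6.31% for cover and 100% against 63.5% for starts, and below them in B cells.

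For 33 of 35 members the covered percent was higher in liver than in the other 15 sets, against 33.9% of all genes tested (7383 of 21755) (exact permutation test of 5 sets against 15, two-sided, Benjamini-Hochberg adjusted p under 0.05). The median difference was 17.2 percentage points over the members and 0.89 over all genes. For F7 the lowest liver set (15.9%) was just below the highest lung set (16%). The adjusted p was 0.000834 for F7 and 0.00049 for the other 32, with an unadjusted p of 6.45e-05, the smallest these permutations can give. F12 and C6 were not called, with adjusted p of 1 and 0.557 by the same exact permutation test. The number of hotspots was higher in liver for 32 members, against 21.9% of all genes, with a median difference of 11.7 hotspots against 0.867. Here F7 missed the threshold as well (10.2 against 4.93 hotspots, adjusted p = 0.131 by the exact permutation test). The repeats of a tissue are different hybrids, so these p-values measure the spread between pooled hybrid sets, not between mice.

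**Figure D2:**
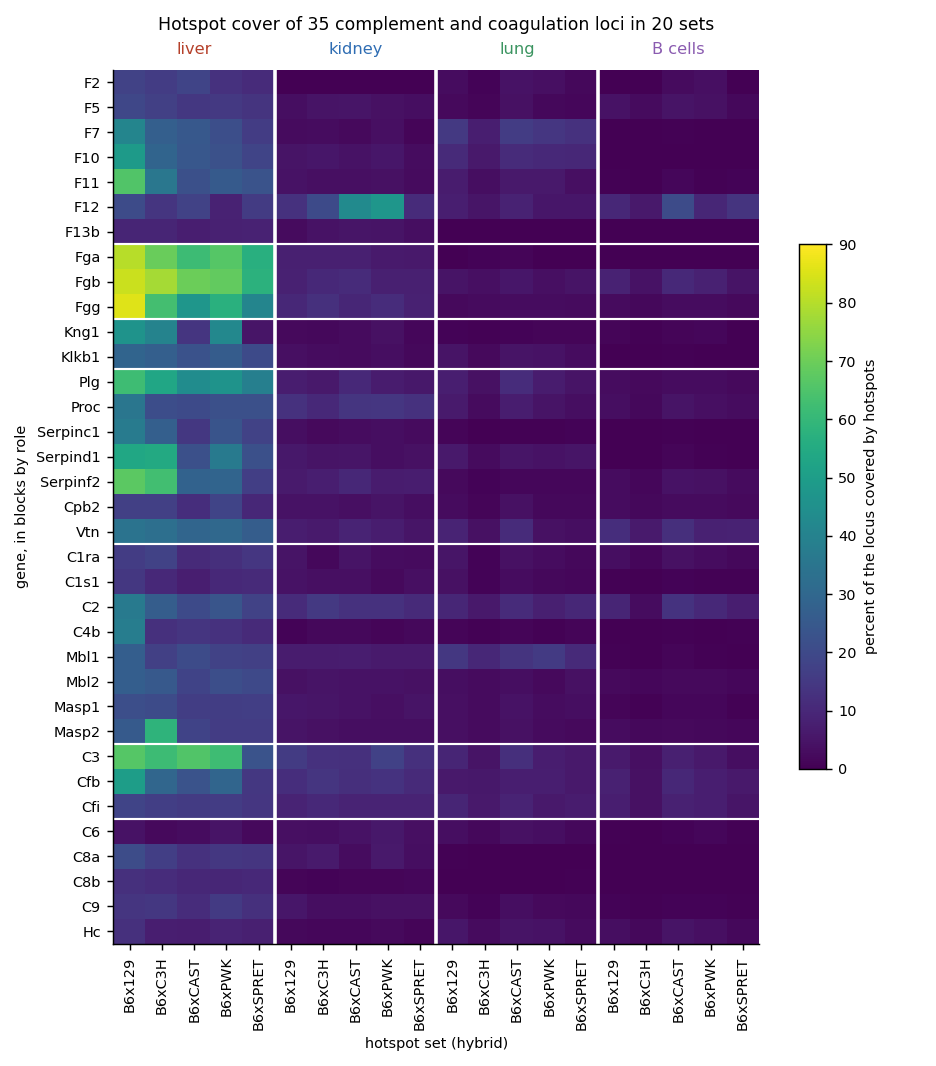
Each row is a member gene, in blocks by role, and each column 1 of 20 hotspot sets grouped by tissue, with colour giving the percent of the locus covered by hotspots from 0 to 90. The liver columns are the brightest for most rows, led by the fibrinogen genes, while F12 is brightest in B6xCAST and B6xPWK kidney (43.0 and 47.4%).

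The 3 fibrinogen genes had the widest liver cover of the list. Fga (ENSMUSG00000028001.16) lies on chromosome 3 from 83026076 to 83033627 on the forward strand, between Fgg (chromosome 3 from 83007724 to 83015049 on the forward strand) and Fgb (chromosome 3 from 83040141 to 83049863 on the reverse strand), and the 3 chains they encode form the soluble precursor of fibrin. The Fga locus was covered over 80.3, 69.3, 61.5, 66.3 and 56.9% in the 5 liver sets. In kidney its cover was 7.91, 7.94, 7.96, 6.37 and 6.06%, in lung 0 to 1.11%, and no B cell set had a hotspot in the Fga locus. Fgb, for the beta chain, had 82.7, 77.8, 69.6, 68.4 and 57.7% in liver and 8.23, 10.3, 11.1, 7.83 and 7.78% in kidney, with 3.72 to 5.4% in lung and 4.39 to 10.3% in B cells. Fgg, for the gamma chain, had 85.6, 63.2, 47.2, 57.3 and 41% in liver, 8.22 to 12.4% in kidney, 2.13 to 3.03% in lung and 2.01 to 2.91% in B cells. At all 3 loci the lowest liver set lay above the highest of the other sets. The differences between the mean of liver and that of the other sets were 64.3 percentage points for Fgb, 64.3 for Fga and 53.7 for Fgg, which ranked 4, 5 and 14 among 21755 genes (adjusted p = 0.00049 each, exact permutation test).

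The liver hotspots there were also long. In B6x129 liver a single hotspot of 19083 bp, from 82998438 to 83017520 on chromosome 3, ran across the whole of Fgg, and the largest one at Fgb had 10950 bp. Over all member regions, 5.35% ± 3.22 (SD, n = 5) of liver hotspots were at least 2 kb long, against 1.46% of all liver hotspots. The shares in the member regions were 0.889% ± 0.869 in kidney and 0.328% ± 0.312 in lung, against 0.675 and 0.475% of all hotspots. No B cell hotspot there reached 2 kb, against 1.55% of all B cell hotspots. At Fgb, part of the signal outside liver belonged to the start of Plrg1, a splicing factor gene 5659 bp upstream of the Fgb start, which was open in all 20 sets.

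**Figure D3:**
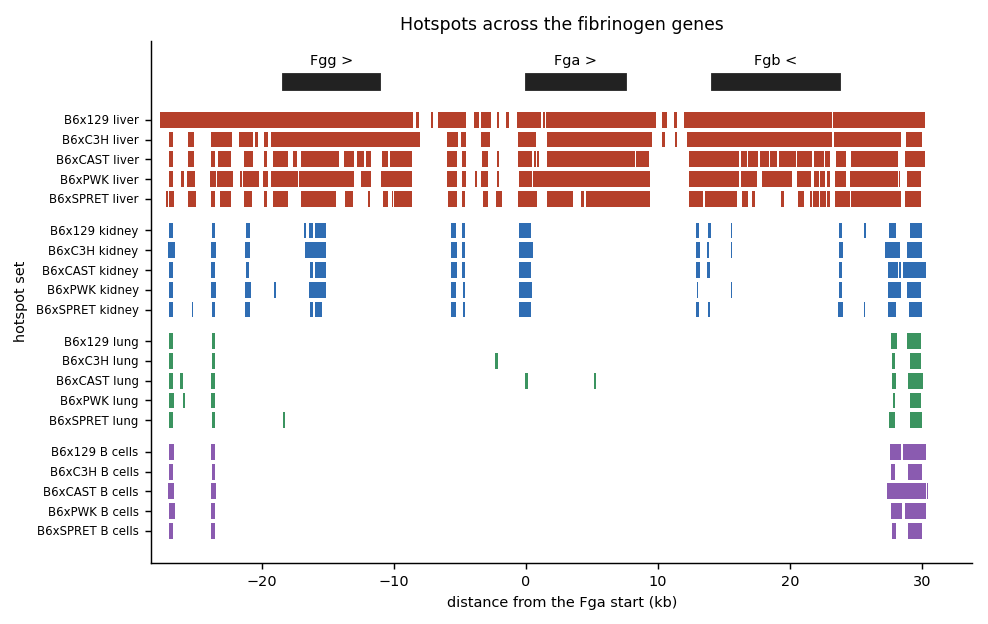
Hotspots (bars) of the 20 sets are drawn to scale against the distance from the Fga start in kb, with the gene bodies of Fgg, Fga and Fgb in black and arrows for their direction. Liver hotspots cover 79.4 to 99.3% of the Fga gene body, while B6xSPRET liver has wide gaps at Fgg (52.2% covered) and Fgb (50.4%), the kidney sets hold short hotspots, including 1 at the Fga start in each, and lung and B cell sets are open mainly at the outer ends, where 3 of the 4 sites open in every set overlapped an mESC CTCF hotspot.

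Of the 7 coagulation factor genes, 6 were called higher in liver, with a median difference of 13.9 percentage points over the 7. F7 and F10, the vitamin K-dependent factors that start the extrinsic path and form prothrombinase, are neighbours on chromosome 8. F7 (chromosome 8 from 13026034 to 13035809 on the forward strand) had 41.1, 27.1, 24.7, 21.5 and 15.9% in liver, 2.57, 2.96, 2.39, 3.64 and 1.4% in kidney, 14.9, 7.62, 16, 14.1 and 12.9% in lung and 0 to 0.363% in B cells. F10 (chromosome 8 from 13037308 to 13056676 on the forward strand) had 49.2, 29.1, 24.4, 22.3 and 18.4% in liver, 4.66, 5.48, 4.54, 5.33 and 3.14% in kidney, 10.6, 6.31, 11.1, 10.4 and 9.87% in lung and 0 to 0.274% in B cells. Lung was thus second to liver at both loci in every hybrid, and their 10 kb flanks overlap. F5, the cofactor of factor Xa (chromosome 1 from 164151838 to 164220277 on the forward strand), had 19.2, 17, 14.6, 15.1 and 13.5% in liver and 3.33, 4.8, 5.19, 3.9 and 3.31% in kidney, with 1.09 to 4.14% in lung and 2.06 to 4.64% in B cells. F13b, which encodes the carrier subunit of the fibrin-crosslinking factor XIII (chromosome 1 from 139501702 to 139523752 on the forward strand), was narrowly covered in every tissue. It had 9.37, 9.47, 7.6, 8.34 and 8.44% in liver and 2.68, 4.47, 4.99, 4.62 and 3.34% in kidney, and at most 0.285% in lung and 0.316% in B cells. Its liver-minus-other difference, 7.24 points, was the fourth smallest of the list, yet the liver range lay above all other sets.

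F2, the prothrombin gene, was covered over 11 to 18.6% in liver and 0 to 0.174% in kidney, and F11, the contact factor XI gene, over 22 to 65.6% and 2.69 to 4.54%. F12 encodes factor XII, which starts the contact pathway, and lies on chromosome 13 from 55417958 to 55426793 on the reverse strand. Its locus was covered over 20.6, 14, 17.8, 8.56 and 15.6% in liver and 12.7, 20.2, 43, 47.4 and 11.2% in kidney, with 7.69, 5.02, 8.51, 5.42 and 5.55% in lung and 10.0, 6.09, 20.5, 9.63 and 13.6% in B cells. Kidney exceeded liver in 3 of 5 hybrids, and the difference of liver from the other sets was 0.213 points (adjusted p = 1, exact permutation test). The flank of F12 holds part of Slc34a1, a phosphate transporter gene of the kidney tubule, and Pfn3. Within the locus, bases of Slc34a1 in hotspots numbered 4766 ± 2571 (SD, n = 5) in kidney and 383 ± 550 in liver, whereas bases of F12 itself numbered 1375 ± 1095 and 2164 ± 856. Of the F12 locus, 45.6% was open in some other set and in no liver set, a share at percentile 99.8 of all genes. With the gene body alone, the F12 difference was 11.3 points, which did not pass either (adjusted p = 0.0632, exact permutation test).

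The contact system partners and the regulators of the clot followed, and all 9 were called higher in liver. Kng1, the kininogen from which kallikrein releases bradykinin (chromosome 16 from 23057865 to 23082078 on the forward strand), differed widely between hybrids. It had 46.2, 40.1, 13.9, 42.2 and 4.97% in liver, 0.803, 0.541, 0.993, 1.32 and 1.17% in lung, 1.54 to 4.07% in kidney and 0.344 to 1.68% in B cells, and it held 43, 40, 17, 50 and 9 liver hotspots. The B6xSPRET and B6xCAST livers were far below the other 3 livers, at percentiles 48.9 and 85.3 of their sets against 98.1 to 99.5. The Kng1 start hotspot had the same borders, 23057862 to 23058399 (538 bp), in all 5 liver sets. The part of read mapping in the cover of this locus was not tested. Klkb1, for plasma kallikrein (chromosome 8 from 45266689 to 45294859 on the reverse strand), had 29.1, 27.1, 22.7, 26.2 and 20.3% in liver and 3.67, 3.06, 2.51, 3.34 and 2.08% in kidney, with at most 4.87% in lung and 0.536% in B cells. Plg, for plasminogen (chromosome 17 from 12378608 to 12419385 on the forward strand), had 62, 53.3, 43.7, 46.1 and 38.8% in liver. Its cover was 5.97 to 10.3% in kidney, 4.03 to 11.4% in lung and 2.14 to 3.13% in B cells, and the difference of 43.1 points ranked 44 among all genes.

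Proc, the gene of the anticoagulant protease protein C (chromosome 18 from 32123126 to 32139570 on the reverse strand), stood out by its kidney signal. Its locus had 35.5, 21.3, 20.2, 22 and 21.9% in liver, 12.9, 10.4, 13.9, 14.4 and 12.8% in kidney, 6.43, 2.76, 7.25, 4.74 and 3.19% in lung and 1.85 to 4.7% in B cells. Serpind1, for the thrombin inhibitor heparin cofactor II (chromosome 16 from 17331371 to 17343575 on the forward strand), had 53.6, 54.6, 21.8, 37.1 and 22% in liver and 6.33, 2.72, 5.03, 4.47 and 4.94% in lung, with 3.38 to 5.77% in kidney and 0 to 1.31% in B cells. Serpinf2, for the plasmin inhibitor alpha2-antiplasmin (chromosome 11 from 75431732 to 75439591 on the reverse strand), had 67.2, 62.7, 28.5, 29 and 16.8% in liver and 6.46, 7.71, 9.94, 6.84 and 7.34% in kidney, with at most 2.19% in lung and 4.38% in B cells. B6x129 and B6xC3H livers were far above the other livers at this locus. Cpb2, for the fibrinolysis inhibitor TAFI (chromosome 14 from 75242287 to 75283555 on the forward strand), had 17.2, 17.1, 11.6, 18.4 and 9.92% in liver and 4.44, 4.32, 3.85, 4.77 and 3.26% in kidney, with at most 4% in lung and 2.85% in B cells. Serpinc1, for antithrombin, was covered over 14.7 to 37.6% in liver and at most 3.51% elsewhere. Vtn, for vitronectin, was covered over 26.7 to 34.4% in liver and 6.36 to 12.2% in B cells, and the start of Sarm1, open in all 20 sets, lies 1337 bp upstream of it.

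All 8 genes of the classical and lectin branches were called higher in liver, with a median difference of 15.1 points. C1ra and C1s1 encode the C1r and C1s proteases of the first complement complex. C1ra (chromosome 6 from 124512405 to 124523443 on the forward strand) had 16, 17.9, 10.8, 12.2 and 14.2% in liver and 4.64, 1.78, 4.57, 3.15 and 2.67% in kidney, with 4.95, 0.979, 4.07, 2.95 and 2.09% in lung and 3.33, 1.55, 3.95, 2.93 and 2.07% in B cells. C1s1 (chromosome 6 from 124530345 to 124542359 on the reverse strand) had 14.7, 10.4, 7.5, 10.5 and 10.9% in liver and 4.48, 3.54, 3.6, 2.38 and 3.53% in kidney, with 4.21, 0.94, 3.14, 1.77 and 1.73% in lung and 0.556, 0.181, 0.881, 0.572 and 0.478% in B cells. The liver ranges lay above all others for both, although both starts were open in every set. C2, the protease of the classical C3 convertase (chromosome 17 from 34862604 to 34898265 on the reverse strand), had 37, 26.5, 20.1, 23.7 and 17.6% in liver and 11.1, 14.9, 12.7, 12.7 and 10.5% in kidney, with 9.82, 5.99, 11, 7.94 and 10.2% in lung and 9.16, 2.94, 13.3, 10.4 and 7.48% in B cells. C4b, which encodes complement C4 (chromosome 17 from 34728380 to 34743882 on the reverse strand), had 38.1, 12.4, 13.7, 13 and 10.6% in liver, 1.0, 2.01, 1.91, 1.09 and 1.9% in kidney, 1.3, 0.69, 1.16, 0.62 and 1.34% in lung and 0 to 0.431% in B cells. C4b, C1ra and C1s1 have near-identical copies in the mouse genome (C4a, C1rb and C1s2), so reads there may be lost or misplaced and their values are less certain.

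Mbl1 and Mbl2 encode mannose-binding lectins and Masp1 and Masp2 the proteases they activate. Mbl1 (chromosome 14 from 41151458 to 41159601 on the forward strand) had 27, 17, 20.6, 17.7 and 17% in liver, 6.73, 6.95, 7.08, 6.52 and 6.6% in kidney, 14.5, 10.1, 13.7, 15.2 and 10.6% in lung and 0 to 1.33% in B cells. Lung cover exceeded kidney cover in every hybrid, but over the gene body with no flank the lung difference from kidney and B cells was -2.57 points. Mbl2 (chromosome 19 from 30232942 to 30239687 on the forward strand) had 26.8, 25.1, 18.3, 21.7 and 19.8% in liver and 3.95, 4.74, 4.55, 4.54 and 4.21% in kidney, with at most 4.02% in lung and 2.18% in B cells. Masp1 (chromosome 16 from 23449417 to 23520815 on the reverse strand) had 21.6, 20.5, 16.3, 16.2 and 16.8% in liver and 5.46, 5.21, 4.28, 3.68 and 4.72% in kidney, with at most 4.55% in lung and 1.72% in B cells. Masp2 had 16 to 58.4% in liver, where B6xC3H gave the highest value, and at most 4.73% elsewhere.

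C3, the hub of the cascade, had the widest liver cover of the complement genes. C3 (chromosome 17 from 57203970 to 57228136 on the reverse strand) had 66.3, 61.7, 65.4, 62.1 and 23.1% in liver, 15.7, 13, 12.5, 17.2 and 12.5% in kidney, 9.18, 4.84, 12.3, 7.16 and 6.32% in lung and 3.4 to 7.9% in B cells. Its difference of 46.5 points ranked 35 among all genes, with B6xSPRET liver far below the other 4 livers. Cfb, for factor B, the protease of the alternative C3 convertase (chromosome 17 from 34856374 to 34862518 on the reverse strand), had 50.1, 29.8, 23.2, 29.2 and 14.7% in liver, 11.7, 13.9, 12.1, 13.2 and 10.6% in kidney, 6.01, 5.72, 7.55, 7.54 and 6.2% in lung and 3.88 to 10.1% in B cells. Its locus holds the starts of Skiv2l and Nelfe, both open in all 20 sets. Cfi, for factor I, which cleaves C3b (chromosome 3 from 129835884 to 129875332 on the forward strand), had 18.5, 16.7, 15.6, 15.8 and 14.3% in liver and 9.01, 10.2, 9.0, 9.06 and 8.81% in kidney, with 9.19, 6.03, 8.93, 6.07 and 6.82% in lung and 7.4, 4.07, 8.11, 7.53 and 5.04% in B cells. The Cfi difference was among the 5 smallest, at 8.50 points, and the starts of Gar1 and Pla2g12a at the ends of its locus were open in all 20 sets.

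The terminal components, which assemble the membrane attack complex, had the smallest median difference of the 7 roles, at 10.3 points. C6 (chromosome 15 from 4727175 to 4814967 on the forward strand) had 4.5, 2.26, 2.94, 4.64 and 2.34% in liver, 3.68, 3.31, 4.34, 5.77 and 3.63% in kidney, 3.47, 1.82, 3.97, 3.28 and 2.11% in lung and 0.133 to 1.75% in B cells. Liver and kidney overlapped at C6, with a difference of liver from the other sets of 0.697 points (adjusted p = 0.557, exact permutation test). Hc, the gene of complement C5 (chromosome 2 from 34983331 to 35061438 on the reverse strand), had 12.4, 7.52, 7.32, 8.8 and 7.86% in liver, 5.31, 2.47, 4.89, 4.39 and 2.74% in lung, 1.22 to 2.3% in kidney and 1.89 to 4.86% in B cells. C8a (chromosome 4 from 104815679 to 104876398 on the reverse strand) had 20.8, 16.6, 13, 14.4 and 13.9% in liver and 5.15, 6.42, 3.06, 6.08 and 3.39% in kidney, with at most 0.442% in lung and 0.0694% in B cells. C9 (chromosome 15 from 6445327 to 6498751 on the forward strand) had 13.8, 14.7, 11.6, 15.4 and 12.5% in liver and 5.33, 3.32, 3.28, 3.9 and 3.88% in kidney, with at most 3.25% in lung and 0.926% in B cells. C8b had 9.81 to 12.3% in liver and at most 1.62% elsewhere. Of these 5 genes, 4 were called higher in liver, all but C6.

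Every member had a hotspot within 500 bp of its annotated start in every liver set, which held for 57.9% of all genes. In kidney 22.6 ± 1.52 (SD, n = 5) members had one, in lung 15 ± 2.65 and in B cells 4.4 ± 1.14. As a share, this was 64.6% of members in kidney, where all genes had 65.2%, but 42.9% against 64.9% in lung. Counting a tissue as open at the start where at least 3 of its 5 sets had a hotspot there, 26 members (74.3%) were open outside the liver, near the 69.7% of all genes. Kidney had 22 of them (62.9%, against 65.0% of all genes), lung had 14 (against 64.4%) and B cells had 4 (11.4%, against 54.8%). The start was open in liver and kidney alone for 12 members (F5, F13b, Fga, Fgb, Serpinf2, Klkb1, Cpb2, C8a, C9, Mbl1, Mbl2 and Masp1), a pattern of 1.99% of all genes. Liver alone held 9 (F2, F11, F12, Fgg, Plg, Serpinc1, Vtn, C8b and Masp2), against 1.82% of all genes. Liver, kidney and lung held 6 (F7, F10, Proc, C4b, C6 and Cfb), against 6.20% of all genes, and liver and lung 4 (Serpind1, Kng1, C3 and Hc), against 0.689%. All 4 tissues held C2, Cfi, C1ra and C1s1, a pattern of 51.0% of all genes.

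**Figure D4:**
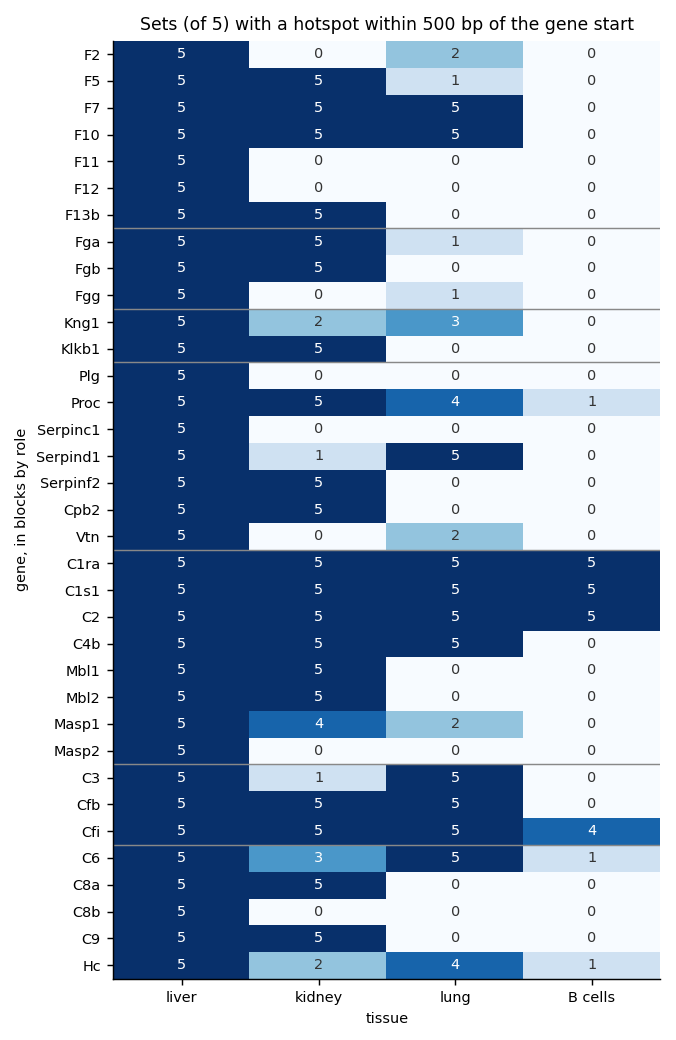
Rows are the 35 members in blocks by role, columns are tissues, and each number is how many of the 5 hybrid sets had a hotspot within 500 bp of the gene start. The liver column reads 5 throughout, the B cell column reads 0 for 28 members, and kidney and lung lie between them.

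The start hotspot was called higher in liver for 7 members, against 0.846% of all genes. F11, F12, Plg, Serpinc1, C8b and Masp2 had it in 5 of 5 liver sets and 0 of 15 others (adjusted p = 0.00935, exact permutation test with Benjamini-Hochberg adjustment), a pattern shared by 141 of 21755 genes. Fgg had it in 1 of 15 others (adjusted p = 0.0421, exact permutation test). With all 20 sets, 24 members had an unadjusted p under 0.05. With the hybrid as a block no member was called and 11 had an unadjusted p under 0.05, and with any 1 hybrid left out none was called and 9 to 10 had one, where the smallest p the permutations can give rose to 0.000977 and 0.000549.

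**Figure D5:**
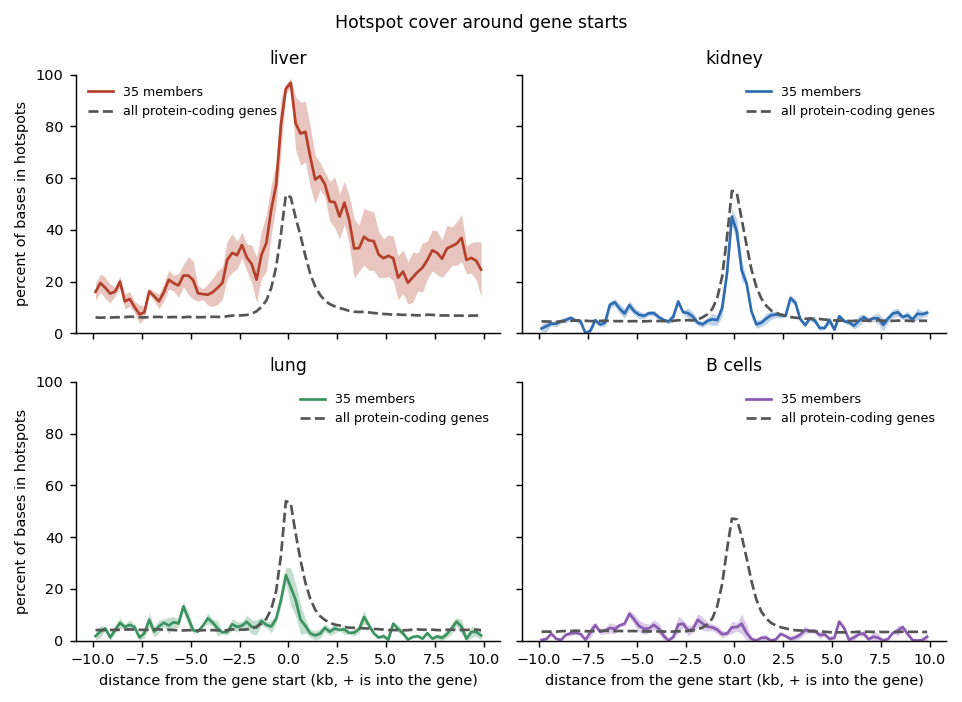
The percent of bases in hotspots (y axis) is drawn in bins of 250 bp by distance from the gene start in kb (x axis), for the 35 members (line, with a band of 1 SD over 5 sets) and all protein-coding genes (dashed). In liver the members reach 96.8% in the first 250 bases against 52.6% for all genes, and in B cells they reach 5.17% against 46.9%.

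Around the starts, hotspots covered 96.8% ± 1.81 (SD, n = 5) of the first 250 bases of the members in liver and 39.4% ± 4.50 in kidney, whereas lung had 20.7% ± 7.41 and B cells 5.17% ± 1.53. All protein-coding genes had 52.6, 54.3, 53.0 and 46.9% there. The member profile in liver was also broad, with 77.9% ± 11.7 of bases covered at 750 to 1000 bases into the gene, where kidney had 8.51% ± 0.685. Start hotspots were weaker outside liver. Their median width was 1370 bp in liver and 404 bp in kidney, with 357 bp for lung and 324 bp for B cells. The median −log10 FDR, which has a ceiling of 100, was 100 in liver and 21.7 in kidney, with 11.4 for lung and 8.38 for B cells. The ceiling was reached at the start of 34 members in some liver set, and outside liver at Proc alone, in 4 kidney sets, where the start hotspot was 1425 to 2657 bp wide.

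At 3 of the 4 members open everywhere, other features lie at the same place. The annotated start of C2 is 204 bp from that of Ehmt2, a histone methyltransferase gene open in all 20 sets. An inner C2 start, 16239 bp into the gene, had a hotspot in 5 liver and 5 kidney sets, 1 lung set and no B cell set. The start sites of C1ra and C1s1 were open in all 20 sets and overlapped an mESC CTCF hotspot. C1s1 start hotspots in B cells were 58 to 185 bp wide, against 245 to 436 bp in liver. The part of these features in the start calls was not tested.

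Among the tissues other than liver, kidney was covered more than lung and B cells at 21 members and less at Hc, against 21.0% of all genes higher and 1.69% lower (exact permutation test of 5 sets against 10, Benjamini-Hochberg adjusted p under 0.05). The largest kidney differences were at F12 (17.7 points, adjusted p = 0.0312), Proc (8.8), Fgg (7.85), C3 (7.43) and Fga (7.06), the last 4 with adjusted p = 0.00402 by the exact permutation test. In the F12 locus, kidney hotspots covered 4766 ± 2571 bases of the neighbour Slc34a1 and 1375 ± 1095 of F12 itself. No kidney set had a hotspot at the F12 start. Hc was -1.83 points from the other tissues in kidney (adjusted p = 0.0445, exact permutation test). In kidney the summed cover of the 8 hepatocyte markers was 28.8 to 45.0 percentage points, against 293 to 407 in liver, 9.50 to 21.4 in lung and 2.64 to 10.0 in B cells. The largest kidney means among these markers were at Apoa1 (10.7%) and Hnf4a (10.5%). Apoa1, Tat, Cyp7a1, Cps1 and Hnf4a had a start hotspot in no kidney set, while Alb and Apob had one in 5 and Ttr in 4. The part of this signal in the kidney result was not tested. Without B6xPWK 12 members were called higher in kidney, and without B6xC3H 13.

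Lung was covered more than kidney and B cells at 3 members, F7, F10 and Mbl1, against 2.55% of all genes. The differences were 11.8, 7.3 and 9.2 points (adjusted p = 0.0234, 0.0234 and 0.0347, exact permutation test). Scaling each set by its mean over all loci gave 6 members higher and 4 lower, and limma with hybrid as a covariate called 1 member. With the hybrid as a block, or with any 1 hybrid left out, no member or other gene was called, and 8 to 10 members had an unadjusted p under 0.05. In B cells, 15 members were covered less than in kidney and lung, against 21.9% of all genes lower. None was covered more by the exact permutation test, also at an unadjusted p under 0.05 (0 members). With the hybrid as a block 13 were lower and 1 higher, Vtn (2.79 points, adjusted p = 0.0461, exact permutation test within hybrids), which was also the 1 member higher by limma and after scaling. The largest drops were at Mbl1 (-9.33 points), F7 (-7.73) and F10 (-7.05), with adjusted p of 0.00424, 0.0428 and 0.0067 by the exact permutation test. The B cell sets also held the fewest hotspots, and with each set limited to its 75000 highest-scoring hotspots 8 members were lower and 2 higher. Without B6x129, 9 were lower.

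Bases open in all 5 liver sets and in no other set made up a median of 6.30% of the member loci, against 0.228% of all loci. By this share, 30 of 35 members were at or above percentile 90 of all genes, led by Fga (44.0%), Fgb (42.1%), Fgg (24.3%), Plg (18.1%) and Vtn, and C6 was lowest at 0.213%. Bases open in some other set but in no liver set made up 1.91% of the median member locus, against 5.17% over all loci.

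In the member regions, sites open in every set mostly lay away from gene starts. The member regions held 38 stretches of bases open in all 20 sets, of which 27 (71.1%) overlapped an mESC CTCF hotspot and 13 (34.2%) lay within 1 kb of a protein-coding transcript start. Over all protein-coding loci, with 29854 such stretches, the shares were 49.99% and 54.8%. Of the 38, 2 had neither feature, against 2959 of the 29854. The fibrinogen genes lay between such sites, with CTCF sites at 82999068 to 82999338 and 83002292 to 83002534 upstream of the Fgg start and at 83053825 to 83054037 upstream of the Fgb start on chromosome 3. In mESCs, 7 members had a DNase start hotspot (F2, F5, Fgg, C2, Cfi, C1ra and C1s1), 7 of 35, against 62.8% of all genes. F7, Serpind1, Serpinf2, Kng1, Klkb1, C4b and C6 held no mESC DNase hotspot in their loci, and F7, F10 and Fga no CTCF hotspot. These stem cell sets have no replicates.

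Most sites were not shared by all hybrids, in the member regions as over all protein-coding loci. Merged over the 5 liver sets, the regions held 614 sites, of which 242 (39.4%) were found in all 5 hybrids, against 35.4% over all protein-coding loci. B6x129 liver alone had 111 sites (18.1%, against 18.1% over all loci), and 30 were missing in B6xSPRET only (4.89%, against 3.98%), both near the share over all loci. B6x129 liver was also the set with the most hotspots, at 295565, and its median member cover was 29.1%, against 16% in B6xSPRET liver. The percentile of the median member within its set lay between 91.8 and 95.1 in all 5 livers. Among the liver sites of at least 1 kb missing in B6xSPRET only were 3 at Kng1, 2 at Plg and one of 2106 bp at C3. No hybrid has a repeat in a tissue, so these differences have no test, and the part of set size in them was not tested.

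Expected counts were few, at 283725 to 809337 per RNA-seq sample, and only 6 members passed the filter on low counts. The paper lists far more uniquely mapped reads for these libraries, so the totals do not measure sequencing depth. In the 4 liver samples (B6xC3H, B6xPWK and 2 of B6xSPRET), C3 had 171, 162, 122 and 25 expected counts, Fga 69, 55, 43 and 13, Fgb 66, 73, 58 and 5, Fgg 56, 19, 19 and 6 and Kng1 25.9, 14, 22.8 and 11. The second B6xSPRET liver was lowest for each of them. Fgb was at 0 in all 13 other samples, while Fga had at most 2 counts and Fgg at most 3. C3 had 4 to 6 counts in the 4 lung samples, at most 2 in kidney and none in B cells. C3 (adjusted p = 4.29e-13), Fga (1.17e-10) and Kng1 (2.05e-09) were higher in liver by edgeR's quasi-likelihood test, against 21.8% of the 4479 genes tested, and no fold is given because B cells were at 0 for each. With DESeq2, 22 of 30 members with an adjusted p were higher, and without the second B6xSPRET liver edgeR tested 13 members and called 10 higher.

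Serpinc1 and Masp2 were lower in liver, against 21.5% of genes tested, with log2 fold changes of -1.67 ± 0.25 (SE, adjusted p = 9.19e-06) and -1.16 ± 0.25 (adjusted p = 0.000658) by edgeR's quasi-likelihood test. The median over all genes tested was -0.35. Serpinc1 had 25, 19, 22 and 10 counts in liver and 117 to 320 in B cells, and Masp2 had 82, 61, 57 and 33 in liver and 255 to 781 in B cells, although neither start was open outside liver. Exons on the opposite strand overlap both genes, with Tardbp over 54.9% of the exon bases of Masp2 and Zbtb37 over 34.4% of those of Serpinc1. Whether strand was used in counting is not given in the sources used here, so reads of these genes and their partners cannot be told apart. Serpind1 was not called (log2 fold change 0.34 ± 0.40, adjusted p = 0.524, edgeR). Members open at their start outside liver often had no counts there. In kidney these were F5, F7, F10, Fgb, Klkb1, C4b, C6, C9, Cfi, C1ra, Mbl1 and Mbl2, without a count in any kidney sample. Others open at their start had counts, such as F13b with 1 to 2 in the kidney samples. Hc had 2, 16, 3 and 5 in the lung samples but none in kidney or B cells. Mbl1 had 4, 5, 1 and 4 in lung and 2, 5, 3 and 1 in liver, without a start hotspot in any lung set. With totals this low, a count of 0 does not show that a gene was silent.

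A further 44 complement and coagulation genes were listed for comparison, of which 43 were found in the annotation. Of these, 22 were covered more in liver, against 33.9% of all genes, and 2 less, against 316 of 21755 genes. Their median difference was 3.12 points. The highest were Hrg, for histidine-rich glycoprotein (32.1 points), Proz, for protein Z (21.7), its partner Serpina10 (17.5), Clu, for clusterin (16.4), Serpina5 (15.2), Cfd, for factor D (15.1), C1rl (13.7) and C4bp, for a C4b-binding regulator (12.7), each with adjusted p = 0.00049 by the exact permutation test. Plau, for urokinase, was lower in liver with -10.7 points (adjusted p = 0.0421), and Thbd, for the endothelial receptor thrombomodulin, with -9.60 (adjusted p = 0.0452, exact permutation test). These last 2, the only ones lower, were named after their values were seen, and the other 19 were not called. At the start, 36 of the 43 were open in liver and 30 in kidney, against 62.9 and 65.0% of all genes. In lung 33 were open and in B cells 23, against 64.4 and 54.8% of all genes.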

How the data were processed

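The authors aligned DNase-seq reads to mm10 (BWA is among the tools in the submitters' processing notes), pooled the samples of each hybrid in a tissue, and used hotspot2 for hotspot calling (FDR of 5%). The deposited hotspot files give each hotspot a −log10 FDR with a ceiling of 100. For RNA-seq, the authors deposited RSEM expected counts per gene (STAR and Trimmomatic are also named), which were rounded to whole numbers here.

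From these, hotspots were intersected with GENCODE gene bodies plus 10 kb for 21755 protein-coding genes, giving the number of hotspots, the percent of bases covered and presence within 500 bp of the start (Python 3.11.15, numpy 2.4.6, pandas 2.3.3). Samples were grouped by the labels, and the sire of B6x129 was 129S1/SvImJ. The paper gives this name in its results and leaves out S1 in its methods. Tissues were compared by the exact permutation test of the difference of means, two-sided, with Benjamini-Hochberg adjustment over all genes. Counts were tested with edgeR 4.0.16 (quasi-likelihood, TMM, filterByExpr), and DESeq2 1.42.0 and limma 3.58.1 were alternatives, in R 4.3.3. Scripts were tested on simulated data. Other alternatives were scaling by the set's mean, FDR 1%, the 75000 highest-scoring hotspots, other flanks and start windows, a hybrid block, and leaving out each hybrid.

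Every hybrid has 1 set in each tissue, so the sets of a hybrid form the block. The number of hotspots per set and the totals of RNA expected counts are given, and neither is the sequencing depth. Read totals per set in the study's supplement were not used here. Values in every set are given for members with a start hotspot in at least 3 of 5 sets of a tissue outside liver and for the 5 largest and 5 smallest liver differences, and up to 8 called genes of the pathway outside the list are named. The members and lists were chosen with earlier results of these data known. The hybrid of 1 B cell RNA-seq sample differs between its label and the study's text, and the label was kept.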

Additional observations from a re-analysis of the deposited data

Results flagged for a closer look

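In 51 groups of 5 sets, each a member or list value in 1 tissue, 6 had a set far from the other 4 by Dixon's criterion (0.71), which flags about 1 in 20 groups by chance. C3 was covered over 23.1% in B6xSPRET liver, against 61.7 to 66.3% in the other livers. Masp2 was covered over 58.4% in B6xC3H liver, against 16 to 25.5%. B6x129 liver was the high set at 3 loci: C4b (38.1%, against 10.6 to 13.7%), Proc (35.5%, against 20.2 to 22%) and Hc (12.4%, against 7.32 to 8.80%). The median member cover in B6xSPRET kidney was 3.63%, against 4.55 to 4.8% in the other kidneys. B6x129 liver held the most hotspots of all sets, and the part of set size in these values was not tested.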

How the results depend on the processing

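Cover was higher in liver for 33 members under every alternative run. Scaling each set by its mean over all loci cut the genes called higher in liver to 3885 for cover (53.4% of calls, from 95.9%) and 2626 for the number of hotspots, and the 75000 highest-scoring hotspots cut the latter to 2944. Start calls among members numbered 12 at the first base, 4 within 2 kb and 17 with 75000 hotspots. With the hybrid as replicate block, 0 members and 0 genes were called at the start, and leaving out 1 hybrid also gave 0 and 0. In kidney, 75000 hotspots gave 12 members (82.8% of all calls higher, 61.9% when scaled) and turned Masp2 to -0.248 points, and leaving out 1 hybrid gave 12 to 19 members and 2201 to 4668 genes. In lung, scaling gave 6 members and 2243 genes (69.2% higher), 75000 hotspots 853 genes (58.3% higher), a 50 kb flank 157 genes, limma 1 member, and no flank turned Mbl1 to -2.57 points. In lung the block gave 0 members and 0 genes, as did leaving out 1 hybrid (0 and 0), where the smallest possible p was 0.00412 and 0.00202. With the same smallest p, 20 members were still called higher in kidney with the block, and 12 to 19 with 1 hybrid left out. The lung calls were therefore not shown to be stable. In B cells, 75000 hotspots gave 8 members and 2603 genes lower (57.9% of calls higher), scaling 45.3% higher, no flank 8 members, and a 50 kb flank turned Fgb to -2.69 points. Leaving out 1 hybrid gave 9 to 12 members and 2243 to 3369 genes in B cells. For RNA, DESeq2 called 22 members and 1604 genes higher, no filter 30 and 1663, and leaving out 1 liver sample 3 to 10 members, with 10 without the second B6xSPRET liver. Beyond fewer sets or genes tested, the cause of these shifts was not tested.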
